A study of Mus musculus with 2 samples.

Results

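The genes described here encode the enzymes that place and remove methyl groups on histone lysines, together with the subunits that hold some of these enzymes in complexes. They were 47 named genes, found by the Ensembl identifiers of their symbols among 34624 loci, and each of the 47 had a locus. RNA-seq of total RNA measured them in whole untreated mouse embryos at embryonic day 10.5, from crosses of CBA/Ca×C57Bl/10 background. There was 1 group of 2 replicates and no treatment, genotype or second stage, so levels are described and no condition is compared. Whether each replicate pooled embryos is not in the labels. The technical part of the spread between replicates thus cannot be told apart from that between embryos. In whole embryos, fewer cells of a type and less RNA per cell cannot be told apart. A locus can also join overlapping genes, whose values cannot be divided among them. This was so for 8 of the 47 members and for 7.14% of all loci.

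Methylated histone lysines are read according to the residue. Methylation of histone H3 lysine 4 (H3K4) marks promoters and enhancers, and that of lysines 36 and 79 (H3K36, H3K79) marks transcribed gene bodies. Trimethylation of lysine 9 (H3K9) and of histone H4 lysine 20 (H4K20) is found in heterochromatin. Most of the writers share the SET catalytic domain. The erasers belong to a flavin-dependent amine oxidase family and to the larger JmjC family, whose members use iron and 2-oxoglutarate.

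The libraries differed in depth, in transcripts of the sex chromosomes and in some tissue markers. The library sizes behind the deposited RPKM values (reads per kilobase of transcript, scaled to library size) were 13711737 reads in replicate 1 and 77921398 in replicate 2, and counts summed over loci came to 18318181 and 117522171. Xist, the non-coding RNA of the inactive X chromosome, had 330 RPKM in replicate 1 and 1.15 in replicate 2, in a locus joined with another identifier. The Y-linked genes Ddx3y and Eif2s3y had 2 and 5 reads in replicate 1, against 14997 and 15664 in replicate 2. The labels give no sex, and what it adds to a difference between the replicates cannot be told apart from other differences between the libraries. Of the marker genes of embryonic tissues, those at 1 RPKM or more in each replicate were 6 of 6 striated muscle genes, 4 of 4 neural genes, 4 of 4 genes of primitive red cells and 3 of 3 liver genes. The levels of some of these markers differed several-fold between the replicates. The liver genes Apoa1 and Afp had 141 and 196 RPKM in replicate 1 and 19.7 and 82.0 in replicate 2, and the embryonic globins Hbb-y and Hba-x had 1746 and 1284 in replicate 1 and 6474 and 3219 in replicate 2. Other genes of these lists went the other way, as Alb of liver had 13.8 and 17.7 RPKM and Alas2 of red cells 131 and 60.3. Of 5 germ cell markers 1 passed, and of 3 markers of maternal decidua 2 passed. Of these 2, Prl8a2 had 1.23 RPKM from 13 reads in replicate 1 and 6.38 from 383 in replicate 2, and Dcn had 20.3 and 22.2 RPKM.

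Nearly the whole set was expressed. Of the 47 member loci, 46 reached 1 RPKM in both replicates, where 49.4% of all loci and 65.1% of protein-coding loci did. At 10 RPKM or more in both replicates there were 43 members, beside 29% of all loci and 42.2% of protein-coding loci. The exceptions at this higher minimum were Kdm4d, Smyd1, Setd1b and Kmt2d. The median level over the 47 members was 56.2 RPKM in replicate 1 and 43.9 in replicate 2. Over the 12557 protein-coding loci that reached 1 RPKM in both, it was 26.3 and 19.1. Levels spanned 0.335 to 447 RPKM in replicate 1 and 0.244 to 407 in replicate 2, with Kdm4d lowest and Ehmt1 highest in each. Of the 46 pairs of neighbours in the order of mean RPKM, 15 stood in the same order in both replicates. In 1 pair, Smyd1 above Kdm4d, the difference exceeded the replicate spread defined below. Neighbours in an ordered list lie close, and over the whole range the order was shared, with a Spearman's rho between the replicates of 0.944 across the 47 members and 0.982 across the detected protein-coding loci.

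**Figure D1:**
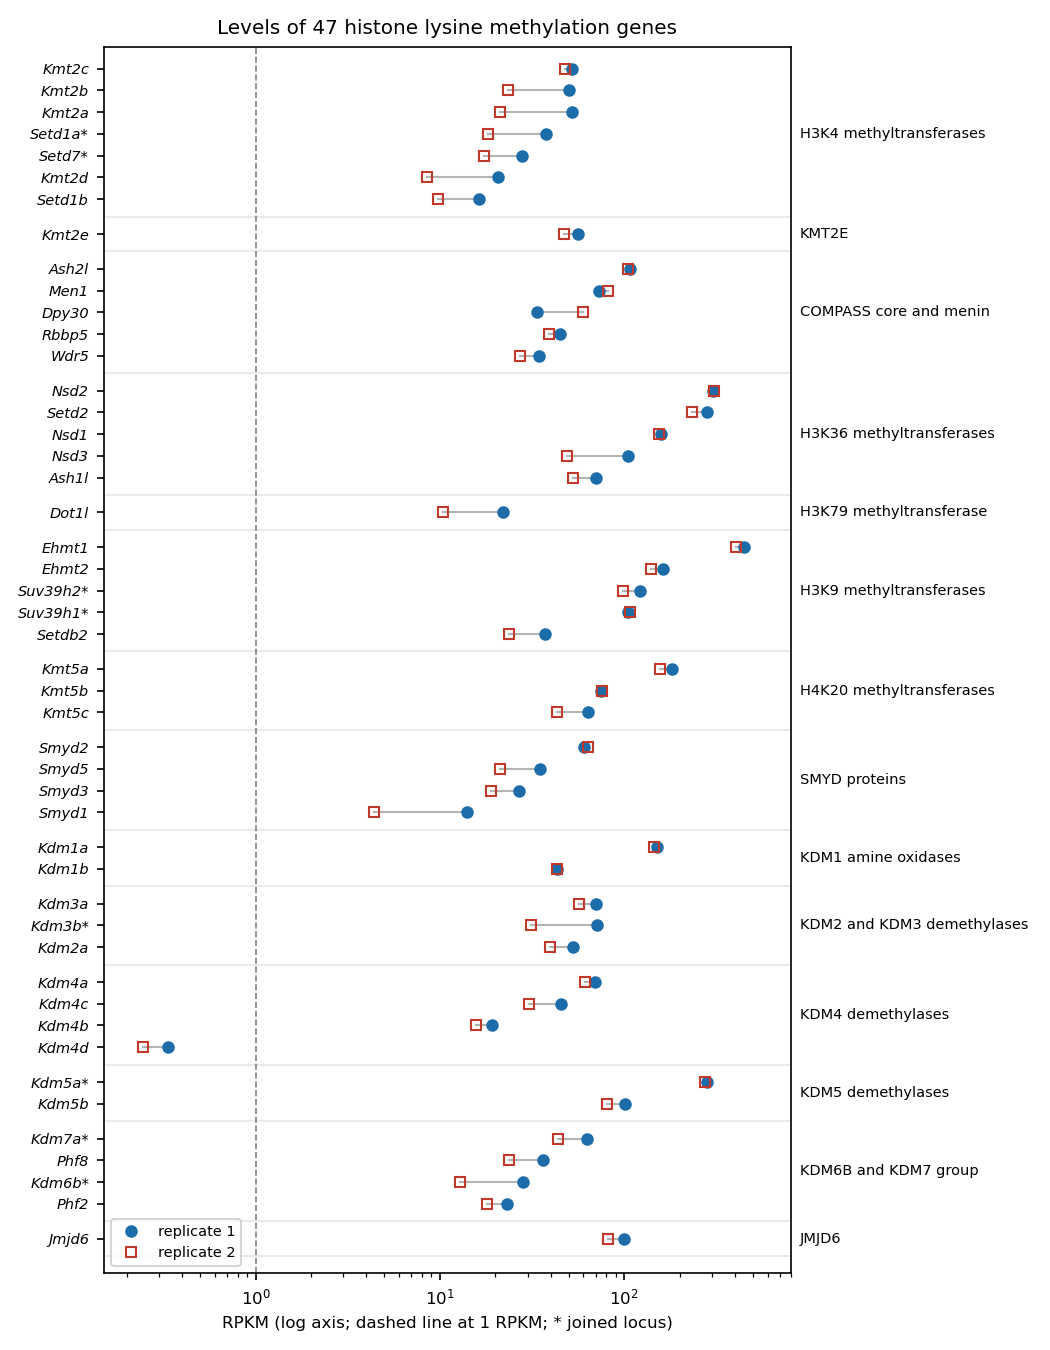
RPKM on a log axis of each member in replicate 1 (filled circles) and replicate 2 (open squares), joined by a line and grouped by role. Kdm4d lies below the dashed line at 1 RPKM in both replicates, at 0.335 and 0.244, and the 46 other members lie above it.

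The order of the genes depends on the transcript length behind each RPKM. The deposited values corresponded to a length shorter than the longest annotated transcript of the locus in 47 of 47 members and to less than 50% of it in 24. Among detected protein-coding loci the shares were 97.2% and 47.8%, so both hold for the deposited files in general. The gap reached the order itself: the RPKM of Ehmt1, the highest member, corresponded to 1125 bases in replicate 1 and 998 in replicate 2, where its longest transcript in a later annotation has 5953. For a second scale, RPM, the reads scaled to library size alone, were divided by the length of the longest transcript of the locus in kilobases, an alternative chosen after the values were seen. On it Ehmt1 stood at 84.5 and 68.3 and had rank 5 among the 47. Setd2 came first there, at 137 and 118, before Nsd1 at 102 and 99.5, Kdm1a at 87.4 and 99.7 and Nsd2 at 84.9 and 93.3. Members at 10 or more in both replicates numbered 37 on that scale, beside 21.5% of all loci and 30.4% of protein-coding loci. Spearman's rho between the mean levels on the 2 scales was 0.909 across the 47 genes, which share both libraries. The length also differed between the replicates by more than 1.2-fold in 10 of the 47 members, beside 9.13% of loci of 1 RPKM or more. Values below are RPKM unless the longest-transcript scale is named.

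**Figure D2:**
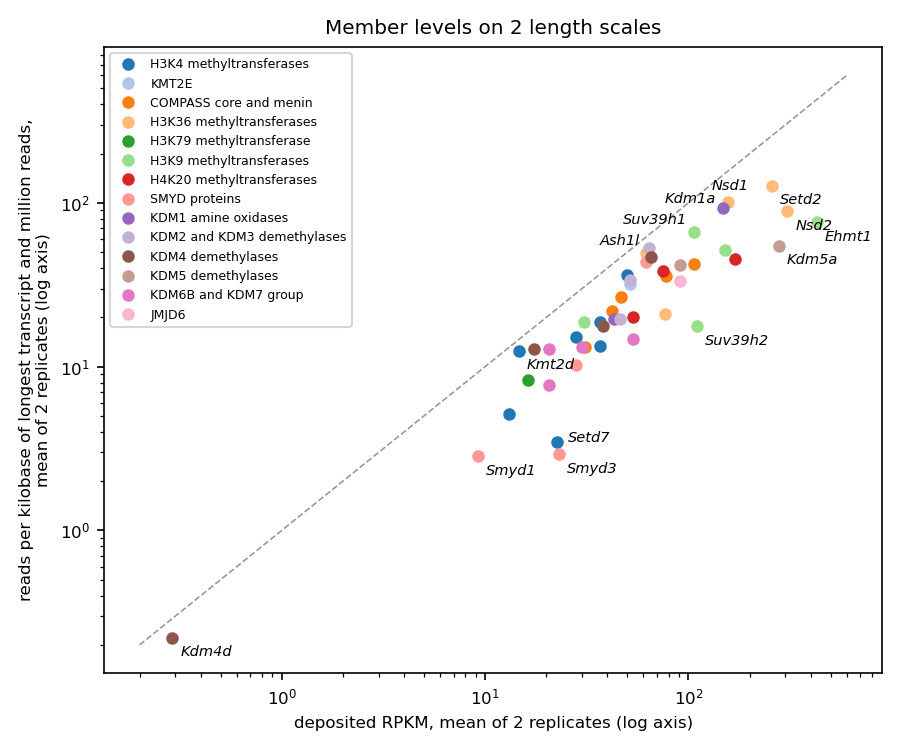
Mean level of each member as deposited RPKM (horizontal, log axis) and as RPM per kilobase of the longest transcript (vertical, log axis), coloured by role, with the dashed line marking equal values. All 47 points lie below the line, and Ehmt1, Kdm5a, Suv39h2, Smyd3 and Setd7 lie among the farthest from it.

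The writers of H3K4 methylation stood at low to middle levels for the set. Their median over 7 loci was 37.5 RPKM in replicate 1 and 18.3 in replicate 2, and 7 of 7 reached 1 RPKM in both. Kmt2a (MLL1), which maintains Hox gene expression, had 52.0 and 21.3 RPKM. Its close paralogue Kmt2b had 50.4 and 23.5 RPKM. Replicate 1 was over 2 times replicate 2 for both genes, and neither gene was above the other in both libraries. Kmt2c and Kmt2d are the paralogues that monomethylate H3K4 at enhancers, and they parted: Kmt2c had 52.4 and 47.7 RPKM, against 20.8 and 8.49 for Kmt2d. Kmt2c was higher by 1.83 ± 0.75 on the log2(RPKM + 1) scale (SD, n = 2), with a limit of 0.99, and by 1.55 on the longest-transcript scale.

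Setd1a and Setd1b carry out much of the trimethylation of H3K4 at promoters. Setd1a had 37.5 and 18.3 RPKM in a locus joined with Hsd3b7, and Setd1b had 16.3 and 9.81. Setd1a was higher by 0.99 ± 0.22 on the log2 scale (n = 2), just past the limit of 0.99, and in replicate 2 alone, at 0.84, it was not. Setd7, which monomethylates H3K4 and several non-histone proteins, had 27.9 and 17.3 RPKM in a joined locus. On the longest-transcript scale Setd7 had 4.14 and 2.75 and was among the lowest members. Kmt2e, a relative whose SET domain has no known activity on H3K4, stood at 56.2 and 47.1 RPKM.

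Kmt2a to Kmt2d, Setd1a and Setd1b share core subunits in their complexes, named COMPASS after the yeast complex. These subunits and menin had higher levels in replicate 2 than most of these enzymes. Ash2l, which stimulates the catalytic subunit, was the highest at 107 and 106 RPKM. Men1 encodes menin, which tethers Kmt2a and Kmt2b complexes to chromatin, and had 73.5 and 81.6 RPKM. Rbbp5 had 44.7 and 39.0 RPKM and the scaffold Wdr5 had 34.4 and 27.2. Dpy30, the smallest subunit, had 33.5 RPKM in replicate 1 and 59.8 in replicate 2, from 235 and 1934 reads. It was the 1 member whose log2 ratio between replicates, in RPKM + 1, lay over 2-fold above the median shift of loci of 1 RPKM or more in both. Of those loci 5.38% did. The length behind its RPKM was 512 bases in replicate 1 and 415 in replicate 2. In reads scaled to library size alone (RPM) its log2 ratio was 0.53, within 2-fold of the median of -0.43. Wdr5 minus Dpy30 was 0.04 in replicate 1 and -1.11 in replicate 2, and Rbbp5 minus Ash2l was -1.33 ± 0.12, both within the limits of 1.22 and 1.36. The second of these was beyond the limit in replicate 2 alone, at -1.41, and also with a common length for both libraries or with the spread of protein-coding or of single-identifier loci. On the longest-transcript scale Wdr5 minus Dpy30 was -0.95 and beyond its limit of 0.84.

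The H3K36 enzymes were the highest role group in the set with more than 2 members on both length scales. Their median was 159 RPKM in replicate 1 and 155 in replicate 2 over 5 loci, and 84.9 and 93.3 on the longest-transcript scale. Setd2, which trimethylates H3K36 behind elongating RNA polymerase II, had 281 and 234 RPKM from 15722 and 76471 reads. Nsd2, which dimethylates H3K36, had 304 and 308 RPKM, and its paralogue Nsd1 had 159 and 155. Nsd3, the third paralogue, had 105 and 48.9 RPKM. Nsd1 minus Nsd2 was -0.96 ± 0.04 in log2(RPKM + 1), within the limit, but 0.18 on the longest-transcript scale, so their order was not fixed. Nsd3 lay below both paralogues in each replicate. The differences from Nsd1 (1.13 ± 0.74) and from Nsd2 (2.08 ± 0.78) were within the limits on RPKM and beyond them on the longest-transcript scale, at 2.31 and 2.13. On RPKM both were beyond the limits in replicate 2 alone, at 1.65 and 2.63, and with the spread of protein-coding loci alone. Ash1l, a large protein that dimethylates H3K36, had 70.4 and 53.1 RPKM. Dot1l, the H3K79 methyltransferase and the writer without a SET domain, had 22.1 and 10.4 RPKM, and had rank 43 of the 47 by mean RPKM and rank 41 on the longest-transcript scale.

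The H3K9 group held the highest member and a wide range. Ehmt1 (GLP) and Ehmt2 (G9a) form the heterodimer that places mono- and dimethyl H3K9 in euchromatin. Ehmt1 had 447 and 407 RPKM, and Ehmt2 had 163 and 140. Ehmt1 minus Ehmt2 was 1.49 ± 0.05 in log2(RPKM + 1) and 0.55 on the longest-transcript scale, both within the limits, although Ehmt1 was the higher in each library on both scales. The limit on RPKM was 2.43, and with the spread of protein-coding loci alone it was 1.199, which the difference exceeded. Suv39h1 and Suv39h2 trimethylate H3K9 in pericentric heterochromatin, and both lay in joined loci. The X-linked Suv39h1 had 105 and 107 RPKM, and Suv39h2 had 122 and 98.2. Neither was the higher in both replicates. On the longest-transcript scale Suv39h1 exceeded Suv39h2 by 1.83, but the longest transcript of the second locus belongs to Dclre1c, the DNA repair nuclease joined with it. Setdb2, a further H3K9 enzyme, was lowest of the group on RPKM at 37.2 and 23.8, while on the longest-transcript scale, at 22.7 and 14.9, it stood above Suv39h2 by mean.

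Of the H4K20 enzymes, Kmt5a had 182 and 156 RPKM. It places the first methyl group and is tied to the cell cycle. Kmt5b and Kmt5c, which add the further methyl groups, had 75.3 and 75.4 RPKM and 63.5 and 43.3 RPKM. Kmt5b minus Kmt5c was 0.51 ± 0.39 in log2(RPKM + 1), within the limit of 1.10.

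The SMYD proteins, whose SET domain is split by a zinc finger, ranged from low to middle levels. Smyd2, which methylates histones and p53, had 60.8 and 63.3 RPKM. Smyd5 had 35.0 and 21.1 RPKM and Smyd3, a largely cytoplasmic enzyme, had 27.0 and 19.0. Smyd1, an enzyme of striated muscle needed for heart development in mice, had 14.0 RPKM in replicate 1 and 4.40 in replicate 2. These values came from 172 and 507 reads, and exact Poisson 95% intervals, which cover counting error only, ran from 12.0 to 16.2 RPKM and from 4.03 to 4.80 RPKM. Smyd1 fell over 2-fold below the median shift in replicate 2, the 1 member to do so, beside 2.23% of loci of 1 RPKM or more. The length behind its RPKM was 898 bases in replicate 1 and 1479 in replicate 2, the largest such change in the set, and its log2 ratio of replicate 2 over replicate 1 was -1.47 in RPKM + 1 but -0.95 in RPM. The 6 striated muscle markers summed to 331 and 362 RPKM, and their part in the Smyd1 difference was not tested. Contractile genes among them were higher than Smyd1: the cardiac actin Actc1 had 96.0 and 96.5 RPKM and the cardiac myosin Myh7 74.4 and 94.2. Myog, a regulator of skeletal muscle differentiation, was near the level of Smyd1 and also lower in replicate 2, at 14.0 and 8.49 RPKM. Its log2 ratio in RPM was -0.73, and for titin, Ttn, that ratio was -0.46, near the median of -0.43 over detected loci. The other muscle markers were not lower in RPM in replicate 2, with ratios of 0.008 for Actc1, 0.26 for Myh6 and Myh7 and 0.32 for Tnnt2. Smyd1 minus Smyd2 was -2.81 ± 1.08 (n = 2, limit 0.99), beyond the spread in each replicate and on both length scales. Smyd2 minus Smyd3 was 1.41 ± 0.38, also beyond it, and 3.52 on the longest-transcript scale.

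The promoters of the SMYD paralogues at the ends of this range are shown with that of Kdm4d, the lowest member. Each window holds 250 bases before and 50 after a RefSeq transcript start on build GRCm38.p6, on the gene's strand, with CG dinucleotides in capitals. The Smyd1 window is chr6:71262232-71262531 (minus strand), that of Smyd2 is chr1:189922242-189922541 (minus strand) and that of Kdm4d is chr9:14500433-14500732 (minus strand).
Smyd1: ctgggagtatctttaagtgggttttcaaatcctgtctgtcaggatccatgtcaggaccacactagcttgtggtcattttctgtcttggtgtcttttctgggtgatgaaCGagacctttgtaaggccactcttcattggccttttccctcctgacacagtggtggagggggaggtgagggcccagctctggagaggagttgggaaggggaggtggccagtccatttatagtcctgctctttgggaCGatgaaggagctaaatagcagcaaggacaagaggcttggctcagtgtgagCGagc
Smyd2: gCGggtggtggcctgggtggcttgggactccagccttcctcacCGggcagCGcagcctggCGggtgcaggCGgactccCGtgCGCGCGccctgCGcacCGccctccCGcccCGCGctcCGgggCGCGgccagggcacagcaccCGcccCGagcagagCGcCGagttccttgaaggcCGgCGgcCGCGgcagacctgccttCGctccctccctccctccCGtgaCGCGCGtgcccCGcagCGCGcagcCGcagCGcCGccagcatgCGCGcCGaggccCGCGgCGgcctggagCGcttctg
Kdm4d: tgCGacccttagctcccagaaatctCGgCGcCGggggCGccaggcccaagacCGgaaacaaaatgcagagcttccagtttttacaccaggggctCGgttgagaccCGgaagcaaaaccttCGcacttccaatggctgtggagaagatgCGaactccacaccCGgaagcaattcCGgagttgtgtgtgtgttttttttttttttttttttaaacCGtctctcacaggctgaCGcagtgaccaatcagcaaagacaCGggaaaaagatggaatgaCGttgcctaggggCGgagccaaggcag

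The Smyd1 window holds 3 CG dinucleotides, and 31.4% of the 32851 windows of all genes hold as few or fewer. That of Smyd2 holds 43, and 2.61% of all windows hold as many or more. The Kdm4d window holds 17, and 31.4% of all windows hold as many or more, while the median over all windows is 7. The hexamer GGGCGG, counted on both strands, occurs 3 times in the Smyd2 window, 1 time in that of Kdm4d and not in that of Smyd1, and 35.7% of all windows hold it. Among other pairs of paralogues beyond the spread, Kmt2c and Kmt2d hold 56 and 27 CG dinucleotides, Kdm1a and Kdm1b 29 and 26, and Kdm7a and Phf2 65 and 63. Kdm4c has a window with 0 and another with 28, and the window of Ehmt1, the highest member, holds 34. A relation between promoter sequence and level was not tested. Windows were at hand for 33 of the 47 members (70.2%), too few for a statement on the promoters of the set.

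The amine oxidase erasers lay at middle to high levels. Kdm1a (LSD1), which removes mono- and dimethyl H3K4 within the CoREST complex, had 150 and 146 RPKM. Its paralogue Kdm1b, known for its part in oocytes, had 43.0 and 43.5. Kdm1a was higher by 1.75 ± 0.04 on the log2 scale (n = 2, limit 1.36) and by 2.20 on the longest-transcript scale.

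Among the JmjC erasers, the KDM4 family had the widest range. Kdm4a, Kdm4b and Kdm4c remove trimethyl marks from H3K9 and H3K36. Kdm4a had 69.3 and 61.3 RPKM, Kdm4c had 45.6 and 30.6, and Kdm4b had 19.2 and 15.7. Kdm4a exceeded Kdm4b by 1.85 ± 0.07 on the log2 scale (n = 2, limit 1.05) on RPKM and by 1.80 on the longest-transcript scale, whereas Kdm4a minus Kdm4c (0.79 ± 0.27) and Kdm4b minus Kdm4c (-1.06 ± 0.20) were within the limit of 1.36. Both were beyond the limits from protein-coding loci alone, of 0.72 and 0.74. On the longest-transcript scale Kdm4a minus Kdm4c was 1.38, beyond its limit of 0.96. Kdm4d, which acts on H3K9 and is known from testis, had 0.335 RPKM from 9 reads in replicate 1 and 0.244 RPKM from 42 reads in replicate 2. Its exact Poisson 95% intervals were 0.153 to 0.635 and 0.176 to 0.330 RPKM. Kdm4c exceeded it by 4.90 ± 0.32 (n = 2), the largest difference among the 32 pairs compared. Of the 5 germ cell markers, Dazl had 0.162 and 0.157 RPKM and Ddx4 0.709 and 0.178, while the germ cell gene that passed, Sycp3, lies in a joined locus at 33.8 and 25.0.

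Kdm5a and Kdm5b, which demethylate trimethyl H3K4, were both high. Kdm5a had 281 and 274 RPKM in a locus joined with Ccdc77, and Kdm5b had 101 and 80.8. Their difference of 1.61 ± 0.20 in log2(RPKM + 1) was within the limit of 2.43 but beyond that of 1.199 from protein-coding loci alone, and was 0.38 on the longest-transcript scale, within its limit. Kdm3a, an H3K9 demethylase needed in the mouse for male germ cells and for expression of the testis-determining gene, had 70.8 and 56.6 RPKM. Its paralogue Kdm3b, in a joined locus, had 71.6 and 31.2. Kdm3a minus Kdm3b was -0.02 in replicate 1 and 0.84 in replicate 2, and the length behind the Kdm3b value rose to 5392 bases in replicate 2, against 3665 in replicate 1. Kdm2a, which binds unmethylated CpG islands and demethylates H3K36, had 52.7 and 39.7 RPKM.

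The H3K27 demethylase Kdm6b stood at 28.3 and 12.9 RPKM in a locus joined with its antisense neighbour Kdm6bos, and the sources used here do not say whether reads were counted by strand. Kdm7a, Phf8 and Phf2 pair a PHD finger that reads trimethyl H3K4 with a JmjC domain. Kdm7a had 62.7 and 43.9 RPKM in a joined locus, the X-linked Phf8 had 36.2 and 23.7, and Phf2 had 23.1 and 18.03. Kdm7a exceeded Phf2 by 1.32 ± 0.11 on the log2 scale (n = 2, limit 0.90), but by 0.18 on the longest-transcript scale, which ended the call. Phf8 minus Phf2 was 0.50 ± 0.18, within the limit. Jmjd6, a JmjC protein described as a lysyl hydroxylase, had 99.4 and 82.2 RPKM.

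The 32 pairs compared in all were 24 of paralogues or partners and 8 of a writer and an eraser. A pair was called beyond the spread when both replicates gave the same sign and the mean difference in log2(RPKM + 1) exceeded 2 SD of the log2 ratio between replicates of loci of that level. This was so for 8 of the 24 and for 8 of the 8, and for 67.7% of all pairs that can be formed from protein-coding loci of 1 RPKM or more, so a call says only that 2 levels differ. With 2 differences measured in the same libraries, no exact two-sided test can go below p = 0.5, and none was run. With the spread of protein-coding loci alone, 25 of the 32 were called. Of the 16 called pairs, 13 were called in the same direction on the longest-transcript scale. With a limit of 3 SD, 7 of the 32 remained beyond it: Kmt2c over Kmt2d, Smyd1 under Smyd2, Smyd2 over Smyd3, Kdm4a over Kdm4b, Kdm4c over Kdm4d, Kmt2b under Kdm1a and Kmt5a over Phf8.

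In the writer and eraser pairs, chosen with earlier results of these data known, the H3K4 writers were the lower partner. Kmt2a minus Kdm5a was -3.02 ± 0.86 and Kmt2b minus Kdm1a was -2.07 ± 0.73 (SD, n = 2 each). In the other 6 pairs the writer was the higher. Setd2 minus Kdm2a was 2.46 ± 0.09 and Nsd1 minus Kdm4a was 1.26 ± 0.10, both of H3K36. Ehmt1 minus Kdm3a was 2.73 ± 0.13, Ehmt2 minus Kdm3b was 1.65 ± 0.68 and Suv39h1 minus Kdm4c was 1.48 ± 0.42, all of H3K9. Kmt5a minus Phf8 was 2.48 ± 0.26 for monomethyl H4K20. On the longest-transcript scale Ehmt1 minus Kdm3a (0.52) and Ehmt2 minus Kdm3b (0.62) were no longer beyond the spread. In replicate 1 alone 5 of the 8 were within it, as Kmt2a minus Kdm5a was -2.41, Setd2 minus Kdm2a 2.39, Nsd1 minus Kdm4a 1.19, Ehmt2 minus Kdm3b 1.17 and Suv39h1 minus Kdm4c 1.19. Some other pairings of the same residues, not compared with the limits, stood the other way. The H3K9 writer Setdb2 (37.2 and 23.8 RPKM) lay below Kdm3a (70.8 and 56.6), and the H3K4 writer Kmt2c (52.4 and 47.7) above Kdm1b (43.0 and 43.5). Writers and erasers as a whole lay close. Medians were 58.5 and 47.4 RPKM for the 26 writers and 57.7 and 41.6 RPKM for the 16 erasers. Kmt2e was counted with the writers and Jmjd6 with the erasers.

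**Figure D3:**
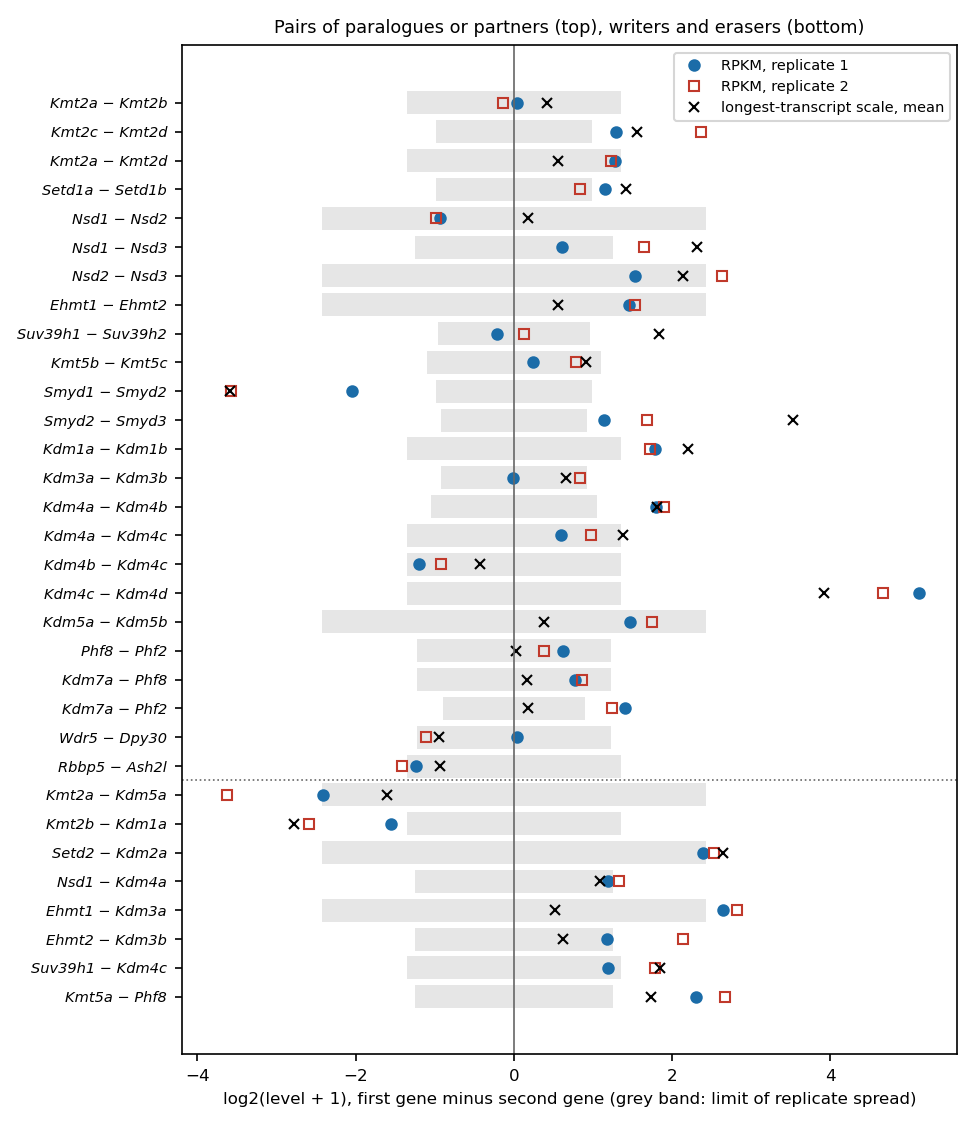
Difference in log2(level + 1) between the first and the second gene of 32 pairs, as RPKM in replicate 1 (filled circles) and replicate 2 (open squares) and as the mean on the longest-transcript scale (crosses). Grey bands give the limit of the replicate spread on RPKM, and Kdm4c minus Kdm4d, at 5.12 and 4.67, lies farthest from 0.

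Among role groups of more than 2 genes, the replicates differed most in the H3K4 enzymes, with a median log2 ratio of -1.01 in RPM. In RPM, which no transcript length enters, replicate 2 was below replicate 1 by more than 0.5 on the log2 scale in 18 of the 47 members and in 43% of loci of 1 RPKM or more. The difference of 0.5 was chosen after the values were seen. Of the 7 H3K4 enzymes 7 were in this range, between -1.29 for Kmt2d and -0.59 for Setd7, and of the 4 core subunits and menin none was, between -0.24 and 0.53. The median over detected loci was -0.43. Kdm6b (-1.33), Nsd3 (-1.13), Smyd1 and Dot1l (-0.78) were further members with low ratios. The GC content of the longest transcript was 57.0% to 59.1% for Setd1a, Kmt2d, Setd1b and Kmt2b, 50.6% for Kmt2a, 47.6% for Kmt2c and for Setd7, and 42.3% for Dpy30, which had the highest ratio. Other members did not follow this order: Ehmt2, with the highest GC content of the set at 60.8%, had a ratio of -0.11, and Men1, with 57.0%, had -0.19. Over the 47 members, Spearman's rho between this ratio and GC content was -0.301, and over 12536 detected protein-coding loci it was -0.141. With the length of the longest transcript it was -0.365 and -0.158. These correlations are across genes of the same 2 libraries, and the part of GC content, transcript length, depth or sex in the differences was not tested. Nor was that of tissue makeup, whose liver and red cell markers moved both ways between these libraries. Log2 ratios in RPM were -3.00, -1.25 and 0.36 for the liver genes Apoa1, Afp and Alb. In the red cell genes they were -1.02 for Alas2 and 1.89, 1.72 and 0.89 for the globins Hbb-y, Hba-x and Hbb-bh1. The neural genes were all higher in replicate 2, with 0.16 for Nes, 0.43 for Fabp7, 0.17 for Tubb3 and 0.14 for Sox2.

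**Figure D4:**
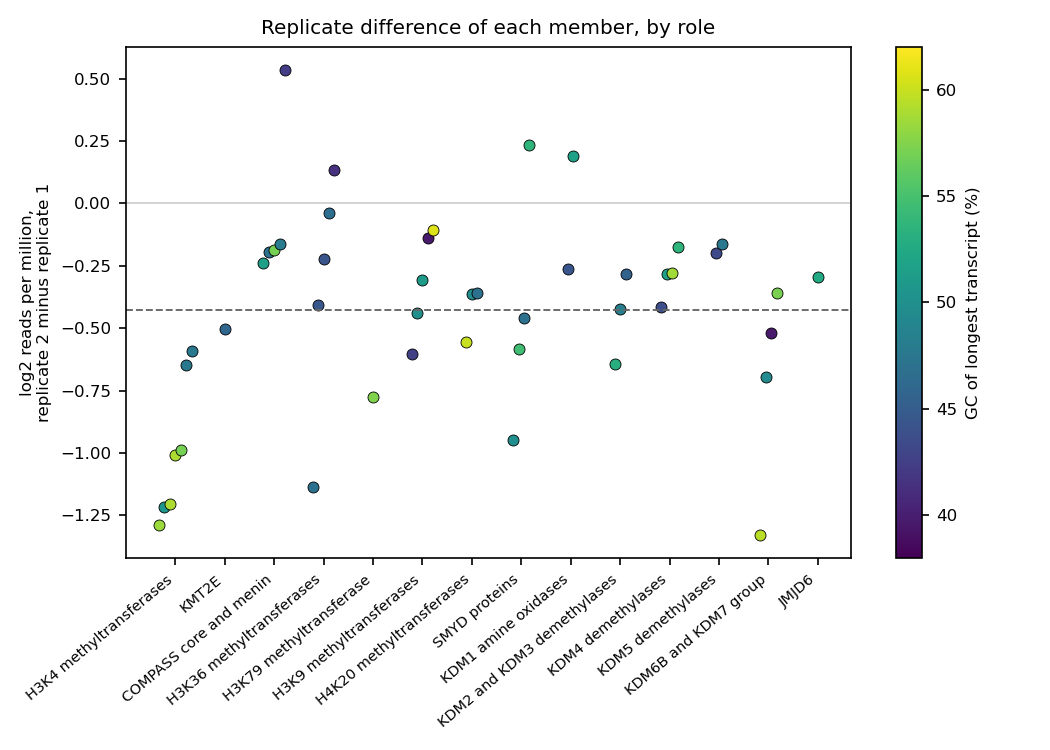
Log2 RPM in replicate 2 minus replicate 1 for each member, by role, coloured by the GC content of its longest transcript, with the dashed line at the median of detected loci (-0.43). The 7 H3K4 enzymes lie between -1.29 and -0.59, and the COMPASS core and menin between -0.24 and 0.53.

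Other genes of the same pathway were expressed almost throughout. Of 80 genes in 6 lists, 79 had a locus and 74 reached 1 RPKM in both replicates, where 49.4% of all loci and 65.1% of protein-coding loci did. Partners and associates of COMPASS passed at 12 of 12 loci, with Psip1 highest (726 and 1081 RPKM, joined with Snapc3), then the glycosyltransferase Ogt (162 and 117) and Kansl1 (140 and 127), and with Cxxc1, the CpG-binding subunit of the Setd1 complexes, lowest (35.9 and 25.5). CoREST partners of Kdm1a passed at 10 of 10, led by the deacetylase Hdac2 (290 and 439 RPKM), Rcor2 (152 and 127) and Phf21a (131 and 121), with Gse1 lowest (14.2 and 7.17). Partners of Dot1l and the super elongation complex passed at 9 of 9, led by Aff4 (162 and 209 RPKM), Mllt3 (137 and 96.2) and Mllt10 (58.3 and 54.8), with Aff1 lowest (11.6 and 5.52). Readers of methyl-lysine passed at 18 of 19 loci. The heterochromatin proteins Cbx5 (922 and 1669 RPKM) and Cbx1 (344 and 564) and the joined Psip1 locus were highest, and L3mbtl1 was lowest (1.38 and 0.123). Other SET and PRDM proteins passed at 15 of 16, led by the H3K27 methyltransferase Ezh2 (691 and 745 RPKM, joined), Setd5 (215 and 178) and the actin methyltransferase Setd3 (122 and 98.1), with the germ cell regulator Prdm14 lowest (0.0828 and 0.0437).

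Other JmjC proteins passed at 11 of 14 loci. Jarid2, which accompanies Polycomb complexes, was highest (172 and 160 RPKM), then Jmjd1c (148 and 102, joined) and Jmjd8 (122 and 115), and Hr was lowest (0.327 and 0.192). The other loci that did not pass were the Y-linked Kdm5d and Uty, named after their values were seen. Kdm5d had 0 reads in replicate 1, which allows up to 0.219 RPM, and 14980 in replicate 2. Uty had 4 reads in replicate 1 and 14744 in replicate 2. Their X-linked counterparts, the H3K4 demethylase Kdm5c and the H3K27 demethylase Kdm6a, were lower in replicate 2. Of the X-linked counterparts of the other Y-linked genes named above, Eif2s3x was also lower in replicate 2 and Ddx3x was higher, with log2 ratios in RPM of -0.84 and 0.50. Kdm5c had 127 and 85.1 RPKM and Kdm6a had 78.7 and 35.1, with log2 ratios in RPM of -0.78 and -1.12. The X-linked members Suv39h1 and Phf8 had log2 ratios in RPM of -0.44 and -0.69, against the median of -0.43 over detected loci.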

How the data were processed

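Total RNA was extracted with TRI reagent and phenol and prepared for Illumina sequencing, per the labels' protocols. The submitters' processing notes name TopHat and mm9 without versions. The sources used here do not give the read counter or use of strand. The authors deposited, per the file headers, RPKM values and raw read counts for 34676 rows per replicate. Rows with the same identifiers were summed to 34624 loci.

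Library sizes were recovered as the whole numbers that gave whole GENCODE M21 transcript lengths, within 0.001 bases, in 99.9% of 1-transcript loci. Counts summed over loci exceeded them 1.34-fold and 1.51-fold, so the counts need not be independent reads. The 95% intervals and the limit from 3 reads treat them as independent, cover counting error only and can be too narrow. M21 and RefSeq (GRCm38) gave lengths, gene classes, GC content and promoters, and 313 of 358 member transcripts were in M21.

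The replicate spread was the SD of the median-centred log2 ratio of RPKM + 1 in 20 level bins of loci of 1 RPKM or more. The limit for a pair was 2 times the larger SD. Pair calls were tested on simulated data with a smaller spread than most level bins here, so that test does not give their error rate. The log2 scale understates differences of low genes. With 1 group no count model was run. Named were all members and the 3 highest and the lowest gene of each list. Alternatives changed the minimum, pseudocount, spread, length scale, joined loci and replicates. The members, lists and pairs were chosen with earlier results of these data known. Python 3.11.15, numpy 2.4.6, scipy 1.17.1 and matplotlib 3.10.9 were used.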

Additional observations from a re-analysis of the deposited data

How the results depend on the processing

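The number of members at 1 RPKM was 46 with either replicate alone, and at 10 RPKM it was 46 and 43 with replicate 1 and replicate 2 alone. Under the other minima, joined loci left out, the largest row and the other length scales these counts stayed within 1.5 times. The median level of 51.4 RPKM was 43.9 to 56.2 with 1 replicate left out and moved to 20.99 on the longest-transcript scale, which divides by a greater length. The median log2 ratio between replicates kept its sign, from -0.53 in CPM to -0.28 in single-identifier loci, beside -0.32. The number of pairs beyond the spread was 16 of 32, 11 to 18 with 1 replicate left out, 7 with a limit of 3 SD, and 25 where only protein-coding loci gave the spread, which lowers the limits. The limit of the highest level bin, from 233 RPKM, was 2.43 over all loci.

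The direction reversed for pairs within the spread, and the cause was not tested. With 1 replicate left out, Suv39h1 minus Suv39h2 was -0.22 and 0.13, Kmt2a minus Kmt2b -0.14 and 0.045, Kdm3a minus Kdm3b -0.017 and 0.84, and Wdr5 minus Dpy30 -1.11 and 0.039. On the longest-transcript scale Kmt2a minus Kmt2b was 0.42, Nsd1 minus Nsd2 0.18 and Suv39h1 minus Suv39h2 1.83, and the last of these was beyond the spread there. No paired analysis was possible because there was 1 group. The lower depth of replicate 1 limits Kdm4d most, with 9 reads.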

Other observations

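The length behind the deposited RPKM differed between the libraries in further members besides Dpy30, Smyd1 and Kdm3b. For Kmt2c it stood at 12683 bases in replicate 1 and 8897 in replicate 2. Its ratio between replicates was -0.13 in log2(RPKM + 1) and -0.65 in log2 RPM. For Suv39h1 the lengths were 2267 and 1637 bases, and the ratios were 0.03 and -0.44. The 4 members with 1 listed transcript, Kmt2d, Rbbp5, Ash1l and Phf2, had the same length in both libraries.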
